A study of Mus musculus with 6 samples.

Results

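The genes described here are 10 adhesion molecules and integrins of T cells, of the 55471 gene IDs in the tables: Alcam and its receptor Cd6, the immunoglobulin ligand Icam1, the integrin chains Itgal, Itgb2, Itgb1 and Itga4, the hyaluronan receptor Cd44, and the receptor-ligand pair Cd2 and Cd48. Alcam was chosen by its lower level in sgElovl1 cells, so that its values in this contrast are given as a description without a test, and the other 9 genes are its receptor and the main adhesion molecules of T cells. Of the tables' IDs, 55144 matched a mouse symbol. Bulk RNA sequencing had been run on OT-I CD8+ T cells, whose transgenic receptor sees an ovalbumin peptide, sorted on the transduction reporter CD90.1 from orthotopic pancreatic tumours. The 2 groups were 3 libraries of cells with a guide against Elovl1 (sgElovl1), the elongase of very long chain fatty acids, and 3 libraries with a guide that targets no gene (sgNT). All cells came from OT-I:Rosa26-Cas9 mice, so sgNT cells also expressed Cas9 and carried a lentivirus, and were collected 7 days after transfer into mice bearing KPC_OVA tumours (a mouse pancreatic tumour line that expresses ovalbumin) and given anti-PD-1. The transduced cells were a mixed population rather than a clone. RNA of 2 tumours was pooled in sgElovl1 replicate 1 and in sgElovl1 replicate 2, and each other library came from 1 tumour.

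Leukocyte adhesion works in layers. Selectin ligands and CD44 allow rolling on the vessel wall, and the chemokine-activated integrins LFA-1 (Itgal with Itgb2) and VLA-4 (Itga4 with Itgb1) arrest the cell on ICAM-1 and VCAM-1. In the contact between a T cell and its target, LFA-1 bound to ICAM-1 forms the outer ring of the synapse, and in the mouse the small receptor CD2 binds CD48 on the opposing membrane. CD6 on the T cell binds ALCAM (CD166), an immunoglobulin family protein of antigen presenting cells, epithelium, endothelium and activated leukocytes that also binds itself between cells.

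The libraries held 21980273 to 26165380 expected counts. Elovl1 was measured at 81.5, 76.6 and 95.4 CPM (counts scaled to a common library size, TMM-normalised) in sgElovl1 libraries, against 283, 280 and 254 CPM in sgNT libraries, with a log2 fold change of -1.69 ± 0.12 (SE, edgeR adjusted p = 8.71e-05). Summed over 8 CD8 T cell genes, which include Cd2, the level was 11410 to 13113 CPM in sgElovl1 libraries and 14886 to 15365 CPM in sgNT libraries, and Cd4 was at most 1.17 CPM. The 8 genes did not move together. Trac, Cd8a, Cd8b1 and Cd2 were lower in all sgElovl1 libraries, while Cd3d, Cd3g and Lck overlapped between the groups. Cd3e went the other way, at 982.5, 928.7 and 831.2 CPM in sgElovl1 libraries, against 725.1, 664.9 and 691.1 CPM in sgNT libraries. Replicate 3 of each group stood apart from the other two on the second principal component and held the most tumour epithelial RNA, with 337 CPM over 10 epithelial genes in sgElovl1 replicate 3 and 1086 CPM in sgNT replicate 3, against 35.6 to 53.9 CPM in the other 4 libraries. The sum of 11 macrophage and monocyte genes was 100, 163 and 322 CPM in sgElovl1 libraries, against 42.9, 60.4 and 73.3 CPM in sgNT libraries. The largest of these genes in each sgElovl1 library was Lyz2, at 53.71, 77.32 and 159.3 CPM. Lyz2 stood at 1.065, 8.615 and 14.03 CPM in sgNT libraries. In each sgNT library the largest was Cd68, which overlapped between the groups. Cd68 was at 27.45, 29.03 and 39.37 CPM in sgElovl1 libraries, against 38.34, 46.12 and 36.67 CPM in sgNT libraries. All 9 fibroblast genes were under 0.5 CPM in every library. Of 7 endothelial genes, 6 were under 0.5 CPM. The part of these other cells in the results was not tested. In such bulk libraries fewer cells with a transcript and less transcript per cell cannot be told apart.

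Upstream sequence is shown for 3 of the genes, Alcam because its level differs most between the groups, and Itga4 and Itgb1 because they are the chains of 1 receptor and have the highest log2 fold changes among the 10. RefSeq's table for GRCm38.p6 held an entry for 6 of the 10 genes and none for Cd6, Itgal, Itgb2 and Cd2. The 250 bases before each start were searched on both strands for 5 motifs, whose matches are in capitals. The GC box was searched as GGGCGG. The box named for its letters was searched as CCAAT. The TATA box was searched as TATAAA. The motif of RUNX factors, which are regulators of T cell genes, was searched as TGTGGT. The motif of NF-kB was searched as GGAAATTCC. None of these letters overlaps another in the windows shown. The RefSeq start of Alcam lies 993 bases inside the GENCODE M21 gene, in the 5′ untranslated part of Alcam-201, so only 30 bases around the first GC box are printed.
Alcam, chr16:52453223-52453252, minus strand: tcgatgtcagccCCGCCCaccagagcgcgg
Itga4, chr2:79255176-79255425, plus strand: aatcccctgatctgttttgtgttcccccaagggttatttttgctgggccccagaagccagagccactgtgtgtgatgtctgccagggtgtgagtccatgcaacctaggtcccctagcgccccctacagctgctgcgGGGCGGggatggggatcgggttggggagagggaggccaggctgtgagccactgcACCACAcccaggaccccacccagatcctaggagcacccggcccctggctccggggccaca
Itgb1, chr8:128685404-128685653, plus strand: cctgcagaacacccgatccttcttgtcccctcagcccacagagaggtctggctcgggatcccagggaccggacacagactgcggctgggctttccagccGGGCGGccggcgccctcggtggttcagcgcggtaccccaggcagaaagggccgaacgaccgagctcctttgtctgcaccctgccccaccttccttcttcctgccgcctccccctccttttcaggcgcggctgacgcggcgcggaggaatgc

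The Alcam window held 2 GC boxes and 1 CCAAT box, the Itga4 window 1 GC box and 1 RUNX motif, and the Itgb1 window 1 GC box. Over all 32851 windows of the same length, a GC box was present in 32.7%, a CCAAT box in 33.8%, a TATA box in 12.4% and a RUNX motif in 14%. None of the 3 genes had a TATA box in its window. The NF-kB motif, present in 0.286% of all windows, occurred once upstream of Icam1, a textbook NF-kB target. These matches describe letters in the windows and not bound sites.

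Alcam was the gene of the 10 with the widest separation of the groups. It is located on chromosome 16 (GRCm38, 52248996 to 52454074, minus strand). Alcam was measured at 21.2, 21.5 and 17.0 CPM in sgElovl1 libraries, against 47.4, 56.1 and 41.6 CPM in sgNT libraries. The highest sgElovl1 library was thus below the lowest sgNT library, and within each group replicate 3 was the lowest. The log2 fold change was -1.28 ± 0.15 (SE), a level of 0.412 times that of sgNT cells. These values rested on 372 to 591 expected counts in sgElovl1 libraries and 1006 to 1438 in sgNT libraries. Over 14 alternative analyses the log2 fold change lay between -1.42 and -1.14. In sgElovl1 replicate 3, which held the most macrophage RNA, Alcam was at its lowest, and in sgNT replicate 3, which held the most epithelial RNA, it was at the lowest of its group. The part of these other cells in the Alcam level was not tested.

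Cd6, the T cell receptor for ALCAM, overlapped between the groups. It is encoded on chromosome 19 (10789341 to 10830058, minus strand) and was measured at 428, 479 and 473 CPM in sgElovl1 libraries, against 488, 562 and 448 CPM in sgNT libraries. In sgNT replicate 3 it was lower than sgElovl1 replicates 2 and 3. The log2 fold change was -0.12 ± 0.12 (SE, edgeR adjusted p = 0.543). On the TPM scale, which divides by transcript length, Alcam stood at 0.0545, 0.0498 and 0.0401 of Cd6 in sgElovl1 libraries, against 0.127, 0.136 and 0.128 in sgNT libraries. This ratio carries the choice of Alcam and was not tested.

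**Figure D1:**
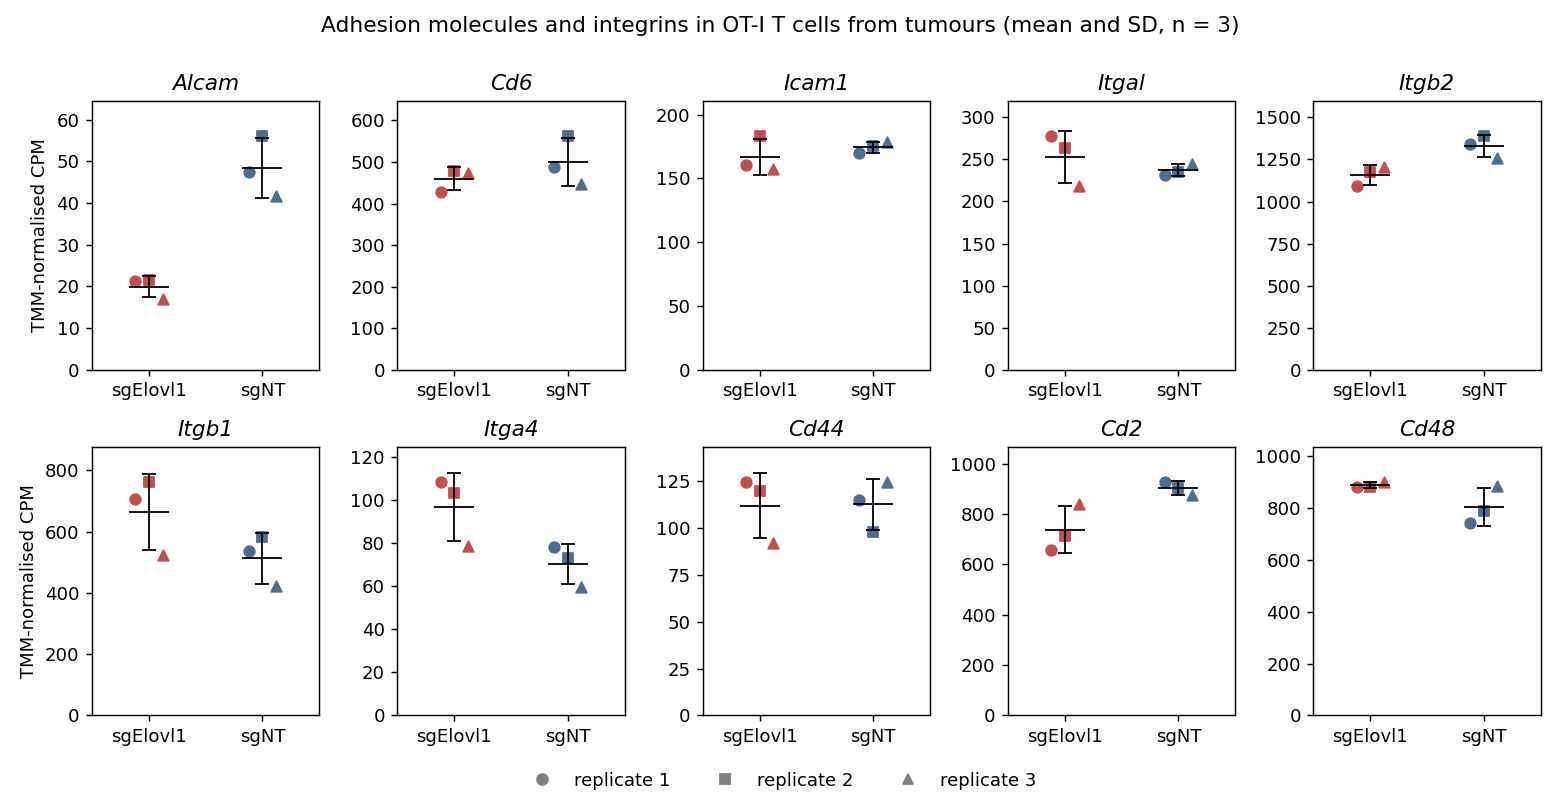
TMM-normalised CPM (vertical axes, each from 0) of the 10 genes in sgElovl1 and sgNT libraries. Points are libraries with 1 symbol per replicate number, and bars are the mean and SD (n = 3). Alcam lies between 17.0 and 21.5 CPM in sgElovl1 libraries and between 41.6 and 56.1 CPM in sgNT libraries, and most other genes overlap.

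Across the 9 other genes, edgeR's quasi-likelihood test over 12546 genes called none at an adjusted p under 0.05, against a background of 13.8% of all genes called (8.64% higher and 5.13% lower in sgElovl1). At an unadjusted p under 0.05 there were 3, Itga4, Itgb1 and Cd2. The share of all genes at that level was not computed, so this count cannot be read as an excess. DESeq2 called 1, Itga4, and called 2305 over all genes, in place of edgeR's 1727. It used its own filter and not the 12546 genes of edgeR, so these totals are not shares of the same set. Of the 9, 4 had a log2 fold change above 0 and 5 below 0, with a median of -0.0070, and the median of all genes tested was -0.0041. In 3 of the 9 (Itga4, Itgb2 and Cd2) the CPM of the groups did not overlap, and the same held for 37.1% of all genes tested. The number called by edgeR and the number without overlap were thus no higher than the share of all genes.

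Of the 4 integrin chains, those of VLA-4 had the highest log2 fold changes, short of the threshold in the edgeR fit on all 6 libraries without a block. Itga4, the alpha 4 chain (chromosome 2, 79255426 to 79333123, plus strand), was measured at 109, 103 and 78.8 CPM in sgElovl1 libraries, against 78.1, 73.2 and 59.8 CPM in sgNT libraries. The groups did not overlap, but sgElovl1 replicate 3 exceeded sgNT replicate 1 only narrowly. The log2 fold change was 0.46 ± 0.15 (SE, edgeR adjusted p = 0.0608). With the replicate number as a block, a pairing that no label gives, Itga4 was called (log2 fold change 0.46, edgeR adjusted p = 0.0288). It was the only gene of the 9 called in that fit, where 13.4% of all genes were called. On the log2(TPM + 1) scale the difference was 0.75 (limma adjusted p = 0.0249), and after a correction for gene length it was 0.19 (edgeR adjusted p = 0.387). Itga4 was also called by DESeq2 (adjusted p = 0.0331) and by edgeR with no filter on low counts (adjusted p = 0.0143). Over all genes DESeq2 called 2305, edgeR with no filter 1946 of 22312, and limma on log2(TPM + 1) 1085. Its gene overlaps Cerkl on the opposite strand, which had 111 to 170 expected counts per library. The strand setting of the counting is not stated in the sources used here, so reads shared with Cerkl cannot be told apart.

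Itgb1, the beta 1 chain shared by VLA-4 and the collagen and laminin receptors (chromosome 8, 128685654 to 128733200, plus strand), was measured at 706, 764 and 523 CPM in sgElovl1 libraries, against 536, 583 and 421 CPM in sgNT libraries. The groups overlapped, because sgElovl1 replicate 3 was below sgNT replicates 1 and 2. Replicate 3 was the lowest of each group, as it was for Itga4. The log2 fold change was 0.37 ± 0.17 (SE, edgeR adjusted p = 0.151), and 0.13 after the length correction.

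Neither chain of LFA-1 was called. Itgal, the alpha L chain (chromosome 7, 127296260 to 127335138, plus strand), was measured at 278, 263 and 218 CPM in sgElovl1 libraries, against 231, 236 and 245 CPM in sgNT libraries. The sgElovl1 libraries lay on both sides of all sgNT libraries. Its log2 fold change was 0.09 ± 0.12 (SE, edgeR adjusted p = 0.623) and turned to -0.22 with the length correction (edgeR adjusted p = 0.17). Itgb2, the beta 2 chain of the leukocyte integrins (chromosome 10, 77530252 to 77565708, plus strand), was measured at 1090, 1173 and 1204 CPM in sgElovl1 libraries, against 1342, 1389 and 1257 CPM in sgNT libraries. These groups did not overlap on the CPM scale, while the TPM values did. The log2 fold change of Itgb2 was -0.20 ± 0.12 (SE, edgeR adjusted p = 0.268).

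Icam1, the main ligand of LFA-1, which activated T cells also carry (chromosome 9, 21015985 to 21028817, plus strand), was measured at 160, 183 and 157 CPM in sgElovl1 libraries, against 170, 175 and 178 CPM in sgNT libraries. The sgElovl1 values enclosed those of sgNT, and the log2 fold change was -0.06 ± 0.11 (SE, edgeR adjusted p = 0.72). Cd44, the hyaluronan receptor that marks activated and memory T cells (chromosome 2, 102811141 to 102901665, minus strand), was measured at 124, 120 and 92.1 CPM in sgElovl1 libraries, against 115, 98.1 and 125 CPM in sgNT libraries. Here too the groups overlapped, with a log2 fold change of -0.01 ± 0.14 (SE, edgeR adjusted p = 0.979). No direction can be given for Cd44, whose sign changed in 6 of the 14 alternatives.

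Cd2 and Cd48, a receptor and its ligand, were the most abundant of the 10 genes in TPM, and neither was called. Cd2, an adhesion and costimulatory receptor (chromosome 3, 101275899 to 101287939, minus strand), was measured at 659, 714 and 840 CPM in sgElovl1 libraries, against 929, 904 and 875 CPM in sgNT libraries. In CPM all sgElovl1 libraries were below all sgNT libraries, and replicate 3 of each was the nearest to the other group, while in TPM sgElovl1 replicate 3 (997 TPM) was above sgNT replicate 3 (973 TPM). The log2 fold change was -0.29 ± 0.13 (SE, edgeR adjusted p = 0.141). Cd48, its glycolipid-anchored ligand in the mouse (chromosome 1, 171682009 to 171705258, plus strand), was measured at 881, 882 and 901 CPM in sgElovl1 libraries, against 740, 790 and 884 CPM in sgNT libraries. In CPM the groups met at sgNT replicate 3, while in TPM they did not overlap, at 1022 to 1077 TPM in sgElovl1 libraries and 826 to 935 TPM in sgNT libraries. Cd48 had a log2 fold change of 0.14 ± 0.12 (SE, edgeR adjusted p = 0.438).

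The number called among the 9 genes rose when sgElovl1 replicate 3 was left out. Without sgElovl1 replicate 3, edgeR called 3 of the 9: Itga4 (log2 fold change 0.59, adjusted p = 0.0145), Itgb1 (0.52, adjusted p = 0.0296) and Cd2 (-0.40, adjusted p = 0.022), with 21.1% of all genes called. Without replicate 3 of both groups, 4 of the 9 were called, with 31.5% of all genes: Itga4 (0.48, adjusted p = 0.00384), Cd2 (-0.42, adjusted p = 0.00531), Itgb1 (0.39, adjusted p = 0.00886) and Itgb2 (-0.27, adjusted p = 0.0349). Leaving out any other single library called none of the 9. In both fits without sgElovl1 replicate 3, each sgElovl1 library left was a pool of 2 tumours, and each sgNT library came from 1 tumour. Pooling and guide thus cannot be told apart in these fits, and the part of pooling in the calls was not tested.

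**Figure D2:**
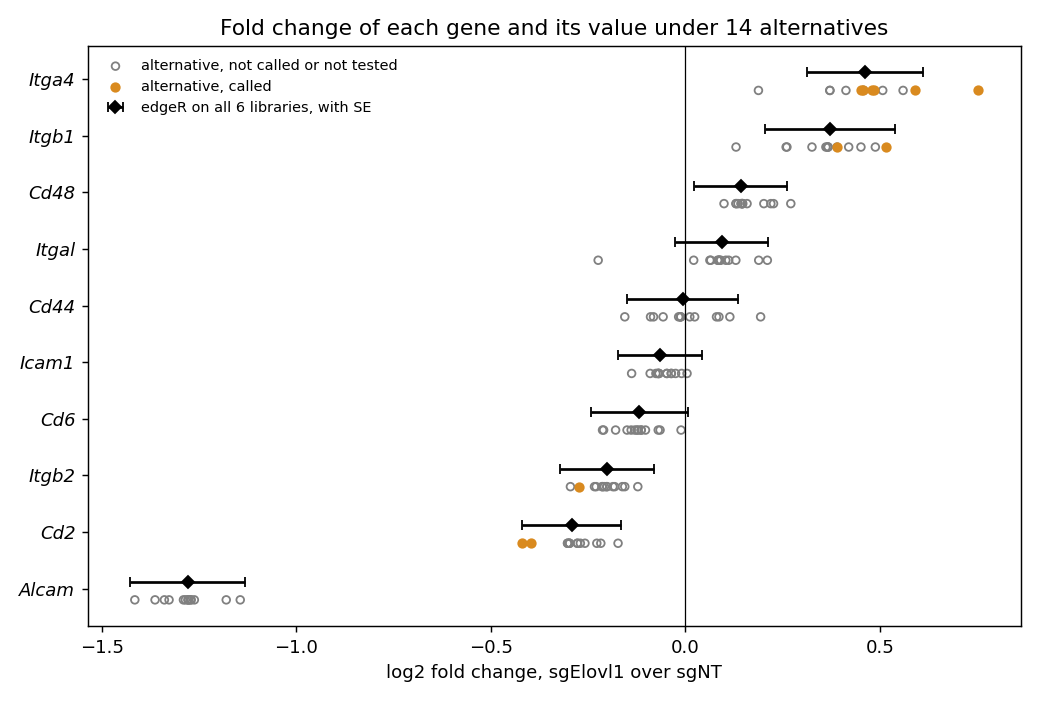
Log2 fold change of sgElovl1 over sgNT (horizontal axis) for the 10 genes. Diamonds and bars are edgeR's value on all 6 libraries with its SE, open circles are the 14 alternatives, and filled circles are alternatives in which the gene was called (Alcam was not tested). Alcam lies at -1.28, and the other 9 genes lie between -0.29 for Cd2 and 0.46 for Itga4.

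Levels of the genes among themselves were compared in TPM. Averaged over the 6 libraries, Cd2 (985 TPM) and Cd48 (970 TPM) led, followed by Itgb2 (497 TPM), Cd6 (192 TPM), Itgb1 (179 TPM), Icam1 (78.2 TPM), Itgal (58.2 TPM), Cd44 (41.0 TPM), Itga4 (23.9 TPM) and Alcam (17.4 TPM). Among all genes tested, these means ranged from the 59.7th percentile for Alcam to the 98.9th for Cd2. Icam1 stayed above Itgal, and Itgal above Cd44, with no overlap over the 6 libraries, and the same held between Cd48, Itgb2 and Cd6 and between Itgb1 and Icam1. Cd6 and Itgb1 overlapped: Itgb1 was above Cd6 in 2 of 3 sgElovl1 libraries and below it in all 3 sgNT libraries. Cd44 was above Itga4 in every library, although their ranges over the 6 libraries overlapped. Itga4 was above Alcam in all 3 sgElovl1 libraries and below it in all 3 sgNT libraries. In gene TPM, which takes coding and non-coding transcripts together, the beta chains exceeded their alpha partners in every library.

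**Figure D3:**
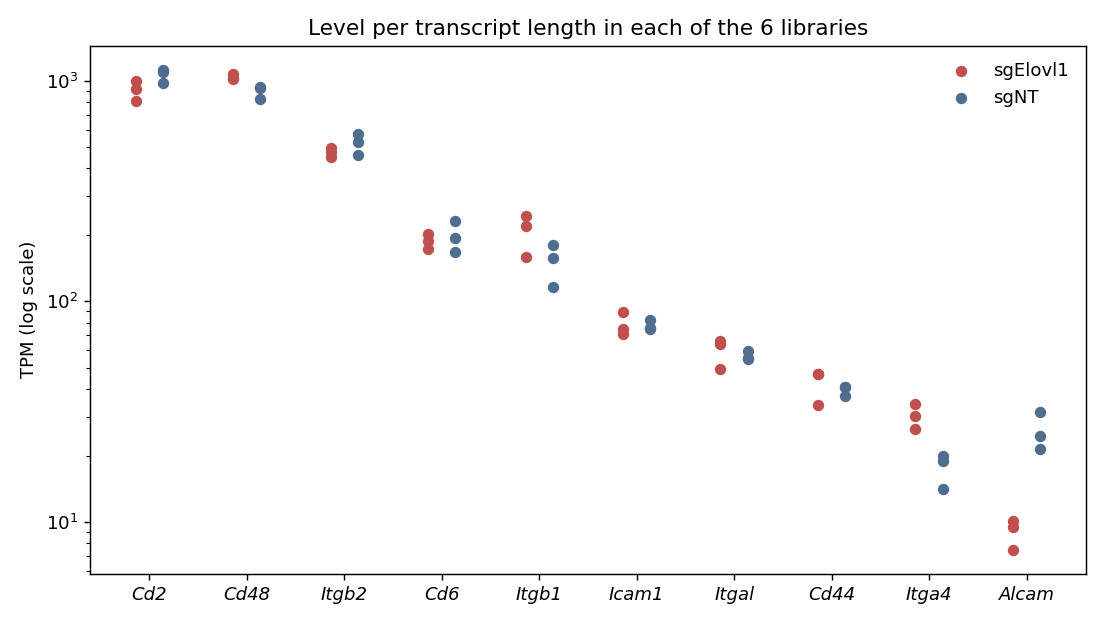
TPM (vertical log axis) of the 10 genes, ordered by their mean over all libraries, in the 3 sgElovl1 and 3 sgNT libraries. Points are libraries. Cd2 and Cd48 lie between 812 and 1119 TPM, and Alcam lies between 7.49 and 10.1 TPM in sgElovl1 libraries and between 21.4 and 31.6 TPM in sgNT libraries.

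Ratios of partners were taken in TPM within each library, 3 of them with an exact two-sided permutation test, whose smallest possible p with 3 libraries a group is 0.1. The ratio of Cd2 to Cd48 was 0.788, 0.851 and 0.976 in sgElovl1 libraries, against 1.33, 1.20 and 1.04 in sgNT libraries. Cd48 was thus the more abundant transcript in all 3 sgElovl1 libraries and Cd2 in all 3 sgNT libraries (log2 difference -0.45, exact p = 0.1). Replicate 3 of each group was the nearest to the other group, and without both of these the log2 difference was -0.63.

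The ratio of Itga4 to Itgb1 was 0.138, 0.141 and 0.166 in sgElovl1 libraries, against 0.127, 0.105 and 0.121 in sgNT libraries (log2 difference 0.33, exact p = 0.1). The groups did not overlap in TPM, whereas the ratio of their CPM did overlap, with a log2 difference of 0.09 (exact p = 0.4). The TPM values of Itga4 depend on the transcript length described below and include its non-coding transcripts. The ratio is thus not one of the coding transcripts of the chains. The ratio of Itgal to Itgb2 was 0.146, 0.129 and 0.104 in sgElovl1 libraries, against 0.106, 0.104 and 0.119 in sgNT libraries, and overlapped (log2 difference 0.19, exact p = 0.4).

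**Figure D4:**
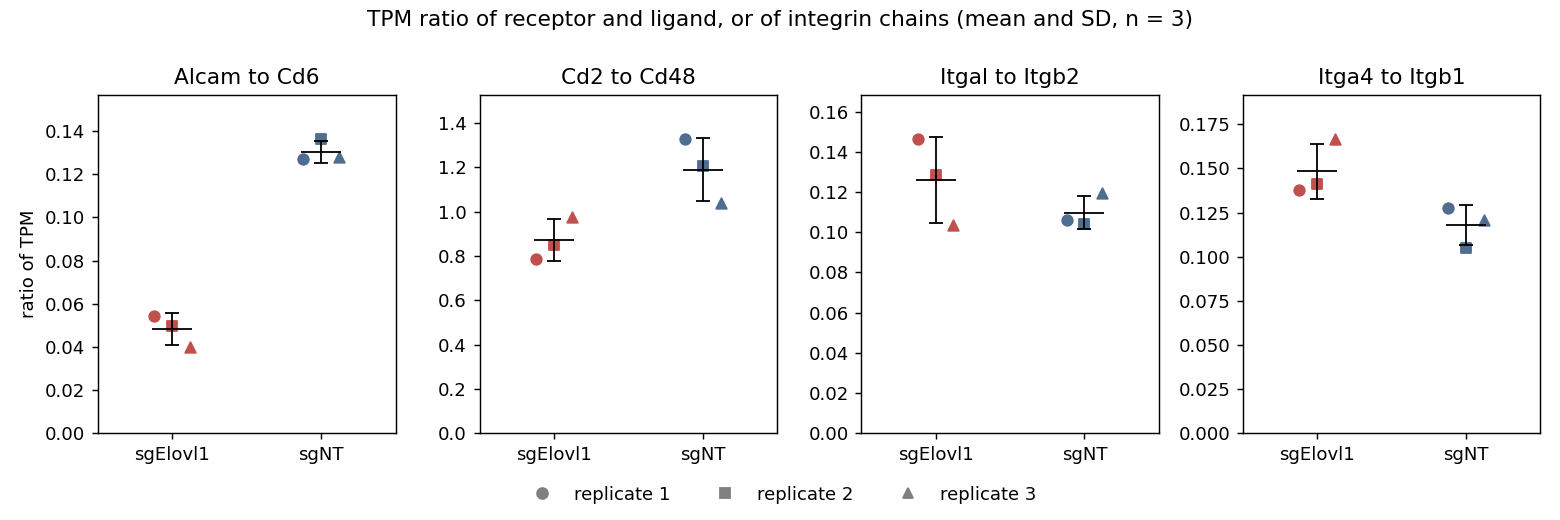
Ratio of TPM (vertical axes, each from 0) for Alcam to Cd6, Cd2 to Cd48, Itgal to Itgb2 and Itga4 to Itgb1. Points are libraries, and bars are the mean and SD (n = 3). The Cd2 to Cd48 ratio lies at 0.788 to 0.976 in sgElovl1 libraries and at 1.04 to 1.33 in sgNT libraries, while the Itgal to Itgb2 ratios overlap.

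The deposited tables also give, for each gene and library, a mean transcript length weighted by the estimated shares of its isoforms. For Alcam this was 2635, 2607 and 2576 bases in sgElovl1 libraries, against 2220, 2158 and 2125 bases in sgNT libraries. The lengths did not overlap, and the sgElovl1 mean was 438 bases longer. GENCODE M21 lists 7 Alcam transcripts: Alcam-201 has 6036 bases, including 1609 bases of 5′ untranslated sequence, and the other 6 have 439 to 1917 bases. A longer mean therefore means a different estimated mix of these, but does not give the share of each. Alcam's length was read from the same contrast and was not tested. The TPM fold of Alcam, which divides by this length, is wider than the CPM fold: 9.0 ± 1.3 TPM in sgElovl1 cells and 25.8 ± 5.3 TPM in sgNT cells (SD, n = 3 each).

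Of the 9 other genes, 4 had weighted lengths that did not overlap between the groups, and the same held for 20.6% of the 10311 tested genes whose length varied by more than 1 base. The median log2 ratio over those genes was -0.0002, and 8.22% had a log2 ratio as large as that of Alcam in either direction. Itga4 was estimated shorter, at 4043, 3562 and 3292 bases in sgElovl1 libraries, against 4202, 4380 and 4272 bases in sgNT libraries (difference -652 bases, exact permutation p = 0.1). Its single coding transcript has 9767 bases and the other 4, none of them coding, have 1508 to 2936 bases. The weighted lengths lay far below the coding transcript in every library, so the TPM of Itga4 includes non-coding transcripts. Itgal was estimated longer, at 4674, 4746 and 4737 bases in sgElovl1 libraries, against 4434, 4472 and 4488 bases in sgNT libraries (difference 254 bases, exact permutation p = 0.1). Cd44, known for its variant exons, differed by -53.9 bases and Icam1 by -6.84 bases (exact permutation p = 0.1 for each), with means of 3056 and 2516 bases in sgElovl1 libraries. The 9 exact tests have a smallest possible p of 0.1. The other 5 genes (Cd6, Itgb2, Itgb1, Cd2 and Cd48) had overlapping lengths.

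**Figure D5:**
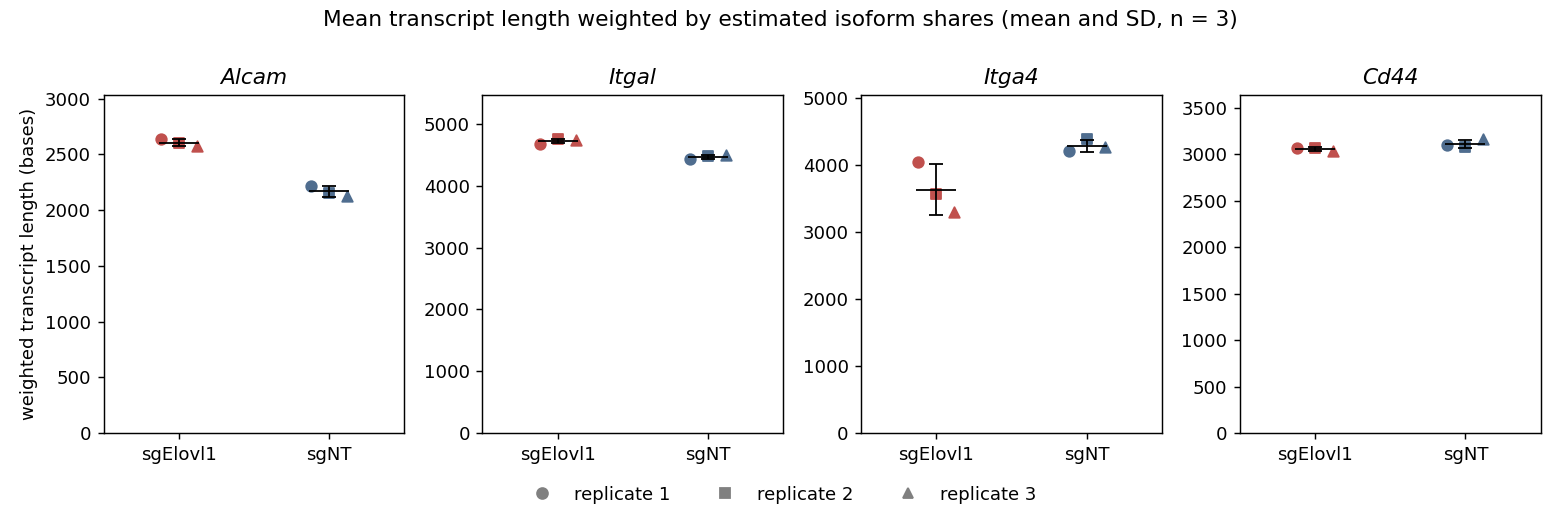
Weighted mean transcript length in bases (vertical axes, each from 0) for Alcam, Itgal, Itga4 and Cd44. Points are libraries, and bars are the mean and SD (n = 3). Alcam averages 2606 bases in sgElovl1 libraries and 2168 bases in sgNT libraries, and Itga4 averages 3633 bases in sgElovl1 libraries and 4284 bases in sgNT libraries.

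Around the 10 genes, 8 lists of related adhesion genes held 140 names, of which 107 passed the filter. EdgeR called 9 higher and 4 lower in sgElovl1 cells, 12.1% of the 107, against the 13.8% of all genes. The median log2 fold change of the 107 was 0.03. The counts are read beside the background only. In the other integrin subunits, 2 of 15 were called, both higher, and the median log2 fold change was 0.41. Itgb3, the beta 3 chain of the vitronectin receptor, rose to 30.1 ± 2.1 CPM in sgElovl1 cells, against 13.8 ± 2.3 CPM in sgNT cells (SD, n = 3 each), with log2 fold change 1.12 (edgeR adjusted p = 0.00187). Itgav, its alpha V partner, rose to 80.8 ± 9.8 CPM in sgElovl1 cells, against 52.8 ± 7.1 CPM in sgNT cells, a log2 fold change of 0.61 (edgeR adjusted p = 0.0159). The groups did not overlap in CPM for either partner, and the same held for 37.1% of all genes tested.

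Among 10 sheddases and proteases, 1 was called: Adam10, a membrane protease known to cleave CD44 and other surface proteins, rose to 113 ± 10 CPM in sgElovl1 cells, against 66.6 ± 3.1 CPM in sgNT cells (log2 fold change 0.77, edgeR adjusted p = 0.003). Itgb3 and Adam10 were called in all 14 alternatives. With the correction for gene length their log2 fold changes were smaller, at 0.73 for Itgb3 (edgeR adjusted p = 0.0156) and 0.46 for Adam10 (edgeR adjusted p = 0.0441). Of 17 genes of integrin activation and talin linkage, 2 rose: Mob1a, a Hippo pathway adaptor (log2 fold change 0.73, edgeR adjusted p = 0.0112), and Apbb1ip, which encodes RIAM, the adaptor that brings talin to integrins (0.66, edgeR adjusted p = 0.0314). Of 19 integrin adhesion and ERM linker genes, 3 rose: Arhgef6, an exchange factor for Rac and Cdc42 (0.56, edgeR adjusted p = 0.00819), Msn, moesin, which ties CD44 and other membrane proteins to actin (0.49, edgeR adjusted p = 0.0218), and Flna, filamin A, which binds integrin tails and actin (0.59, edgeR adjusted p = 0.0269). The direction of Flna turned on the log2(TPM + 1) scale, at -0.50. With the correction for gene length none of the 19 linker genes was called: Arhgef6 had a log2 fold change of 0.30 (edgeR adjusted p = 0.0994), Msn 0.27 (0.143) and Flna 0.20 (0.303), and Mob1a also lost its call (0.42, edgeR adjusted p = 0.0735). The medians of these 3 lists were 0.16, 0.08 and 0.06.

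The list of CD6 and CD5 partners had 3 of 11 called, all lower, and a median log2 fold change of -0.25, with no gene above 0. Sh2d2a, a T cell adaptor that binds LCK, fell to 1966 ± 194 CPM in sgElovl1 cells, against 3017 ± 268 CPM in sgNT cells (SD, n = 3 each, log2 fold change -0.62, edgeR adjusted p = 0.0171). Grb2, a general adaptor to SOS, fell to 114 ± 7 CPM in sgElovl1 cells, against 168 ± 32 CPM in sgNT cells (-0.57, edgeR adjusted p = 0.0237), and Lgals1, galectin-1, fell to 942 ± 78 CPM in sgElovl1 cells, against 1291 ± 164 CPM in sgNT cells (-0.46, edgeR adjusted p = 0.0489). Of 12 other CD2 and SLAM family genes, 1 fell: Pstpip1, which binds the cytoplasmic tail of CD2 (-0.57, edgeR adjusted p = 0.0225, and 0.0672 with the length correction), and the median was -0.06. Of 10 selectin and CD44 related genes, 1 rose: Hmmr, a hyaluronan binding protein that also acts at the mitotic spindle (0.45, edgeR adjusted p = 0.0431). Hmmr was not called with the replicate block (edgeR adjusted p = 0.0681) or with the length correction (0.267), and was called in 4 of the 14 alternatives. The median of that list was -0.23. None of 13 other immunoglobulin adhesion ligands was called by edgeR (1 at an unadjusted p under 0.05, none by DESeq2), and L1cam, a neural adhesion molecule, came nearest (0.62, edgeR adjusted p = 0.0881). The median of these ligands was -0.05.

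The number called in the 8 lists depended on single libraries, as did the number called over all genes. It was 3 without sgElovl1 replicate 1, 2 without sgElovl1 replicate 2, 22 without sgElovl1 replicate 3, 6 without sgNT replicate 1 and 3 without sgNT replicate 2, in place of 13. Over all genes the same fits called 465, 321, 2718, 972 and 398, in the same order, in place of 1727. With the correction for gene length the number was 9 in the lists and 1173 over all genes. Each of the 11 genes named as called other than Itgb3 and Adam10 lost its call when at least 1 library was left out, with the highest adjusted p of each between 0.0559 for Arhgef6 and 0.223 for Lgals1.

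The genes whose profile over the 6 libraries was nearest to that of Alcam, by the root mean square difference of centred log2 CPM among genes of at least 5 CPM, were Unc5cl (0.18), Cib2 (0.20), Stk11 (0.21), Eif4a1 (0.21) and Tmprss6 (0.21). This nearness follows the contrast by which Alcam was selected and is given without a test. Eif4a1, an RNA helicase of translation initiation, had 553, 445 and 475 CPM in sgElovl1 libraries, against 876, 1130 and 988 CPM in sgNT libraries. Stk11, the kinase LKB1, had 9.59, 9.03 and 5.72 CPM in sgElovl1 libraries, against 16.4, 16.9 and 13.4 CPM in sgNT libraries. For both, all 3 sgElovl1 libraries were below all 3 sgNT libraries, as for Alcam.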

How the data were processed

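Bulk RNA-seq of 6 libraries, grouped by their titles, was re-analysed. Per the submitters' processing notes, reads were mapped to mm10 with STAR 2.7.7a and quantified with RSEM 1.3.1, and DESeq2 1.36.0 was used. The annotation release is not given in the sources used here, so names and coordinates are those of GENCODE M21 (GRCm38). The deposited expected counts are estimated read pairs per gene, not scaled between libraries. The deposited TPM are scaled by length and depth. The deposited mean and effective lengths are in bases. Reads came from pre-amplified complementary DNA.

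Expected counts were rounded and tested with edgeR 4.0.16 in R 4.3.3 (filterByExpr with a minimum count of 10, TMM, quasi-likelihood test, group as the only term, two-sided, Benjamini-Hochberg over 12546 genes, threshold 0.05). The edgeR step was also run on simulated counts in which the guide was the only effect. These counts held no pooling, replicate or length effect, and the outcome is not given here. Alternatives used DESeq2 1.42.0, its size factors, limma 3.58.1 (voom, or log2 of TPM with a pseudocount of 1), no filter, a loess offset on length, the replicate number as a block, and left-out libraries. Same-numbered libraries deviated together (correlations 0.212, 0.245 and 0.405), so the numbers were taken as pairs in the block fit, a hint from the data only. Some differently numbered libraries did too: sgElovl1 replicate 1 with sgNT replicate 2 (0.169) and sgElovl1 replicate 2 with sgNT replicate 1 (0.107). The rest lay between -0.294 and -0.233. No label says what a number marks. The labels treat the libraries as separate biological samples, and the p-values measure the spread between them.

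The members and gene lists were chosen with earlier results of these data known. Named genes were the 10 members, Elovl1, up to 4 called genes by p from each wider list (the 1 with the smallest p where none was called), the 5 nearest to Alcam, and marker lists. Marker lists summed as acinar (6.91 to 17.6 CPM), neutrophil (0 to 3.61 CPM), dendritic (87.6 to 195 CPM), B (171 to 378 CPM, mainly Ighm) and CD4 or regulatory T cell genes (1181 to 1682 CPM, mainly Ctla4) were also computed. The dendritic sum was 113, 120 and 195 CPM in sgElovl1 libraries, against 89.5, 87.6 and 93.4 CPM in sgNT libraries. Its largest gene in each sgElovl1 library, H2-Ab1, overlapped between the groups. The neutrophil sum was 1.43, 1.53 and 3.61 CPM in sgElovl1 libraries, against 0.383, 0 and 0.124 CPM in sgNT libraries. The other 3 sums overlapped, and the part of these cells was not tested.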

Additional observations from a re-analysis of the deposited data

How the results depend on the processing

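With the number of genes called over the whole table at 1727, limma on log2(TPM + 1) called 1085, the fit without replicate 3 of both groups 3986, and fits that left out 1 library 321 to 2718. The replicate block called 1676, DESeq2 2305 and the fit with no filter 1946. Of the 9 members other than Alcam, none was called by edgeR on all libraries. DESeq2, the fit with no filter, limma on log2(TPM + 1) and the replicate block called 1 each (Itga4 in each case), leaving out 1 library called 0 to 3, and leaving out replicate 3 of both groups called 4. The replicate block also took Hmmr out of the called genes (adjusted p = 0.0681) and changed no other call among the named genes. In the 8 wider lists, 13 were called, 2 to 22 without 1 library and 30 with replicate 3 of both groups left out. In the fits without sgElovl1 replicate 3, every sgElovl1 library left was a pool of tumours and no sgNT library was. Signs turned for Icam1 on log2(TPM + 1) (0.0045), Itgal with the length offset (-0.22), Flna on log2(TPM + 1) (-0.50), and Cd44 with no filter (0.012), on log2(TPM + 1) (0.080), without sgElovl1 replicate 3 (0.11), sgNT replicate 1 (0.02) or sgNT replicate 3 (0.09) (range over single left-out libraries -0.089 to 0.11), and without replicate 3 of both groups (0.19). The cause of these changes was not tested. With no filter and with DESeq2 the median log2 fold change of all genes moved to 0.12 and 0.10. The ratio in CPM and the ratios and lengths without replicate 3 of both groups were chosen after seeing the data. The log2 ratio differences kept their sign in every alternative, at 0.08 to 0.39 for Itgal to Itgb2, 0.09 to 0.39 for Itga4 to Itgb1 and -0.63 to -0.37 for Cd2 to Cd48. The 3 libraries a group limit the exact tests to p = 0.1 at the smallest, and isoform shares estimated from pre-amplified complementary DNA limit what the lengths show.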
